A study of Homo sapiens with 35 samples.

Results

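Most lamina contacts of these cells ran over megabases, but there were also 394 short stretches of at most 300 kb. Bins of lower contact frequency set them apart on either side, often by only 100 kb. The stretches were chosen from the deposited ratios of observed to expected reads (OE) in 100-kb bins of single cells. A bin counted as in contact in a cell at an OE of 1 or more. A stretch was a run of 1 to 3 adjacent autosomal bins, each in contact in at least 20% of 29 cells (6 cells or more), with a valued bin in contact in 5 cells or fewer on either side. The 394 stretches made up 41.3% of the 954 runs of contacted autosomal bins but held only 644 of 10235 contacted bins (6.29%). Because contact frequency and OE chose the stretches, these values are given as a description and were not tested.

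The cells are clone 5-5 of KBM7, a human leukaemia line with the Philadelphia translocation between chromosomes 9 and 22, labelled diploid (2N). All belong to 1 group, so there is no control and no second condition, and all come from 1 clone. Each cell carries lamin B1 fused to Dam, a bacterial adenine methylase, whose fusion protein was stabilised with 0.5 nM Shield1 for 15 h. Per the labels, single cells were taken from the 2% smallest that carried both Fucci markers of the cell cycle, and fragments that DpnI cut at methylated sites were amplified. Cells with Dam alone, which would show accessibility, were not analysed here, and a signal may stem from either homologue or from different moments of the induction.

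Lamins line the inner face of the nuclear envelope, and chromatin that lies against them forms lamina-associated domains. Such domains are usually long, poor in genes and low in transcription, and the chromatin between them lies further inside the nucleus. A domain touches the lamina in only part of the cells, and single-cell DamID reads this as a frequency of contact. The files name no genes or bands, and no annotation of their build (hg19) was at hand, so the stretches are given by position only and no sequence is shown.

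The 29 cells held 40279 to 258227 recovered reads (median 126625), and 1 read was worth a median OE of 0.0934 to 0.601. Cells 13, 15 and 17 held 985, 1221 and 1755 reads, and there 1 read was worth an OE of 13.6 to 24.7. They were left out of the choice of the stretches and serve below as cells that had no part in it. Of 25097 autosomal bins with values, 40.8% were in contact in 20% or more of the 29 cells, and the stretches are a small part of this share.

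The stretches were mostly single bins with a contact frequency close to the limit that defines them. Of the 394, 210 had 1 bin, 118 had 2 and 66 had 3. Their contact frequency, taken as the mean over bins, ran from 20.7% to 75.9%, with a median of 27.6% and quartiles of 22.4% and 34.5%. The median was 24.1% for 1 bin, 27.6% for 2 bins and 34.5% for 3 bins. By comparison, the bins of the 332 runs of 10 or more bins (1 Mb or more, called long domains here) had a median contact frequency of 75.9%. Only 45 stretches (11.4%) reached 40% and 19 (4.82%) reached 50%.

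The limit of the rule cut through a continuous range of values. In 150 stretches the least contacted bin was at exactly 6 cells, 153 had a flank at 5 cells, and 51 had both. The 79 single-bin stretches at 6 cells had a mean OE of 0.549, and 136 bins at 5 cells with no contacted neighbour, just outside, had 0.455. On the side of length, 58 runs of 4 bins lay just outside, with a median contact frequency of 36.2%.

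Levels in the stretches lay between those of long domains and those of the remaining chromatin. The mean OE was 0.853 ± 0.171 (SD, n = 29 cells) in the bins of the stretches, 0.358 ± 0.122 in their 733 flanking bins and 2.29 ± 0.131 in long domains. Over all autosomal bins under 20% it was 0.104. The flanks of the stretches were therefore not bare chromatin. Of 788 flank sides, 104 (13.2%) were in contact in no cell, and 170 (21.6%) in 5 cells. In 13 stretches a flank had no read in any cell, so that it counted as never in contact without having been measured, and 381 stretches remain when such bins are taken as without a value.

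**Figure D1:**
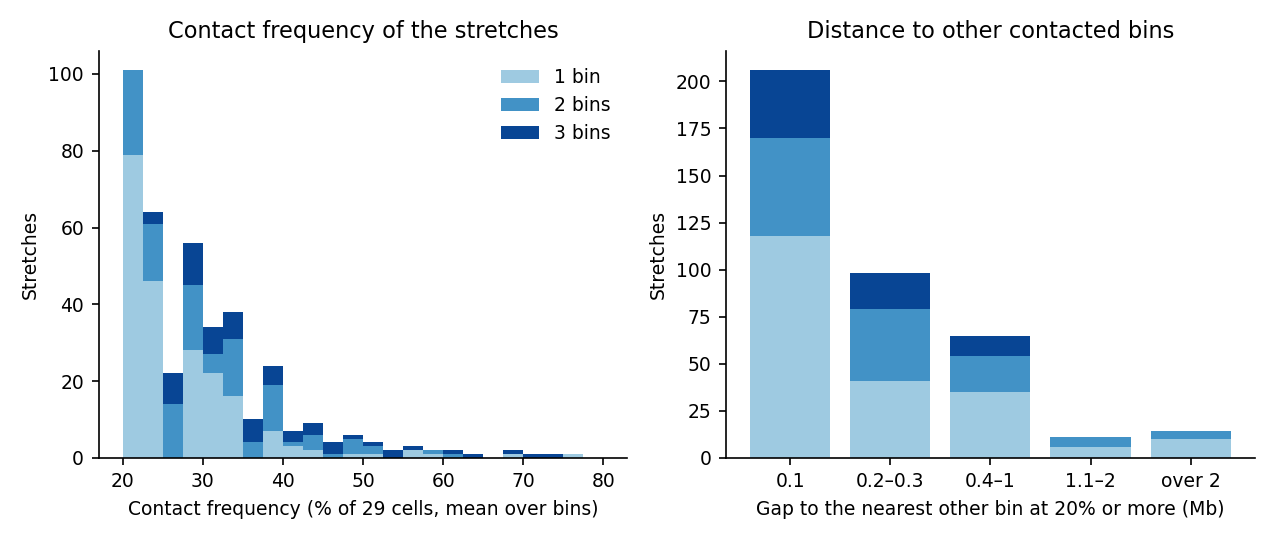
Left, number of stretches by contact frequency (percent of 29 cells, mean over the bins of a stretch), stacked by length. Right, number of stretches by the gap in Mb to the nearest other bin at 20% or more on the same chromosome. Most of the 394 stretches lie near the lower limit of 20%, and 206 lie 0.1 Mb from another contacted bin.

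Few of the stretches were isolated on the scale of a megabase. In 206 of them (52.3%) another contacted bin followed after a gap of a single 100-kb bin, in 98 (24.9%) after 2 or 3 bins, and in 65 (16.5%) after 4 to 10 bins. Only 25 (6.35%) lay further than 1 Mb from any other contacted bin. There were 182 such gaps of 1 bin. Of these, 55 separated 2 short stretches, 66 a stretch from a long domain, 60 a stretch from a run of 4 to 9 bins and 1 a stretch from another short run. Isolation by the rule thus often meant a separation by 100 kb. The nearest long domain was a median of 1.2 Mb away. It lay within 1 Mb for 182 stretches (46.2%) and beyond 5 Mb for 64, and 4 stretches were on a chromosome without one. The contact frequency was a median of 27.6% with a gap of 1 bin and 24.1% with a gap of over 1 Mb.

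Among stretches of 3 bins, chr5:110500001-110800000 was contacted most often, with a contact frequency of 73.6%. Its mean OE per cell had a lowest value of 0.304, a median of 2.32 and a highest value of 7.57 (cell 32). It reached 1 in 21 of 29 cells, whereas its 2 flanks were in contact in 4 cells each, with mean OE of 0.487 and 0.388. Other contacted bins followed after a gap of 1 bin on either side, and the nearest long domain was 0.1 Mb away. The stretch chr7:143600001-143900000 had a contact frequency of 71.3% and OE of 0.449, 1.60 and 4.45 (lowest, median and highest), and it reached 1 in 25 cells. Its right flank had no read in any cell, so the edge on that side was not measured. In chr3:156500001-156800000 the 3 bins were unequal, at 11, 26 and 23 cells, and the stretch rose from 0.217 in the lowest cell over a median of 2.26 to 10.0 in cell 5. Its right flank was in contact in no cell, at a mean OE of 0.0479, against 2.89 in the bin beside it. The fourth, chr4:74200001-74500000, had a contact frequency of 63.2% with 18, 23 and 14 cells over its bins and a median OE of 1.12 (0.339 to 3.82). In these 4 stretches no cell was at an OE of 0, and the lowest cells lay below the contact limit. Another contacted bin also lay 0.1 Mb from those on chromosomes 3 and 4, and 0.2 Mb from that on chromosome 7.

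Of the 2-bin stretches, the most often contacted lay on chromosome 11. At chr11:93000001-93200000 the contact frequency was 62.1%, the OE ran from 0.216 over a median of 1.79 to 4.24, and both flanks were in contact in 2 cells. At chr7:96400001-96600000 it was 58.6%, with OE of 0, 1.54 and 4.43, but both flanks were at 5 cells, the highest that the rule allows. The stretch chr12:65700001-65900000 had a contact frequency of 51.7% with flanks at 0 and 1 cells, and no other contacted bin lay within 0.9 Mb. It was at 0 in 4 cells and reached an OE of 6.09 in cell 35. The fourth, chr6:152200001-152400000, was at 17 and 12 cells in its bins, with OE of 0, 0.895 and 3.05. Each of these 4 stretches rested on 403 to 688 reads over the 29 cells. For those on chromosomes 11, 7 and 6 another contacted bin lay 0.1 Mb away, and on chromosome 11 a long domain lay at that distance.

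The most often contacted single bin was chr6:97400001-97500000, in contact in 22 of 29 cells (75.9%). Its OE had a lowest value of 0, a median of 1.75 and a highest of 5.96, and its flanks were at 4 and 5 cells. A contacted bin also lay 0.1 Mb away, and it belonged to a long domain. Next came chr11:96200001-96300000, at 20 cells with OE of 0, 1.56 and 4.37. Its right flank had no read in any cell, and a long domain began behind that bin, so whether this bin is separate from the domain was not measured.

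The other 2 single bins of this rank rested on hardly any reads. The bin chr21:10500001-10600000 was in contact in 17 cells with OE of 0, 2.55 and 13.3, but on 30 reads in all. The bin 68400001 to 68500000 of the chromosome given as 9:22 was in contact in 16 cells on 38 reads. In both, 1 read sufficed for an OE of 1 in the median cell. OE is a ratio to an expectation, and these 2 bins had an expectation of 14 and 40 units, where the median of all bins with reads was 316. A unit is the step of the expectation that was recovered from the values, as given in the processing.

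**Figure D2:**
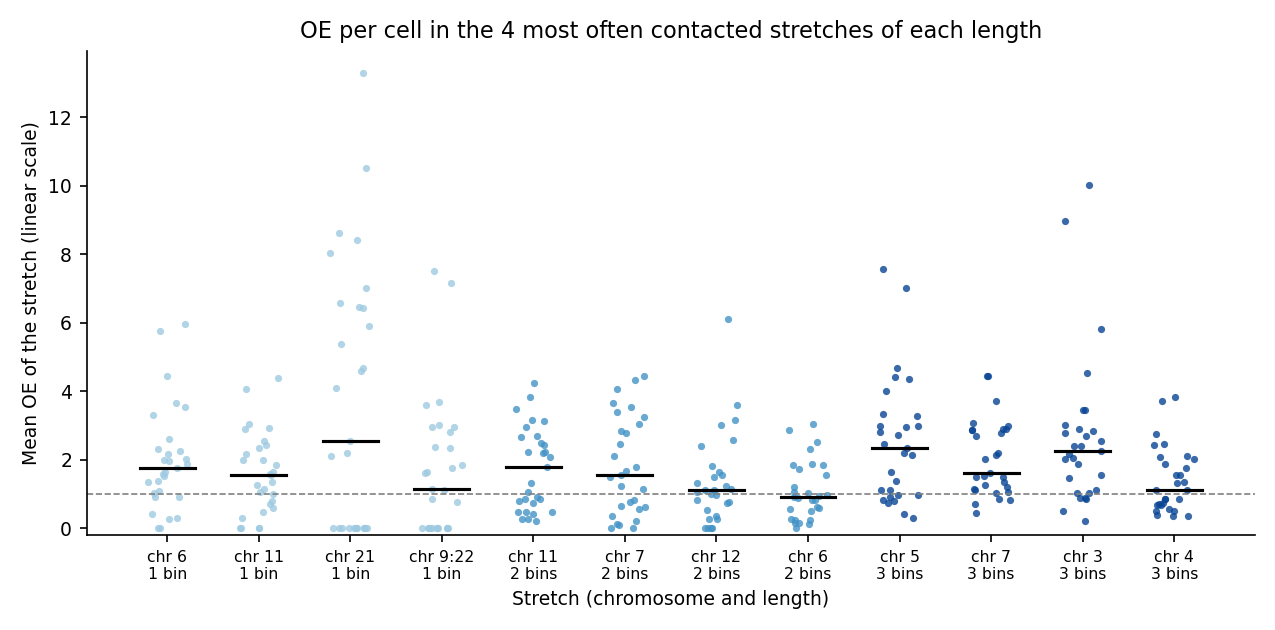
Mean OE per cell (points, 29 cells for each stretch) in the 4 stretches of each length with the highest contact frequency, with the median as a black bar and the contact limit of 1 as a dashed line. In the 3-bin stretches every cell lies above 0, and the single bins of chromosomes 21 and 9:22 separate into cells at 0 and cells of high OE.

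Some stretches had flanks that were never contacted. Both flanks were in contact in 0 cells for 6 stretches, which were picked out after their values were seen. They lay at chr1:223000001-223200000 (24.1%), chr2:96100001-96300000 (20.7%), chr2:224900001-225200000 (35.6%), chr6:119300001-119400000 (20.7%), 32600001 to 32900000 of 9:22 (31.0%) and chr13:110500001-110800000 (31.0%), with contact frequencies in parentheses. In chr2:224900001-225200000 the OE ran from 0 over a median of 0.750 to 2.55, and it reached 1 in 13 cells. The stretch chr13:110500001-110800000 had OE of 0, 0.455 and 2.68 and reached 1 in 9 cells. The stretch on chromosome 2 at 96100001 rested on 45 reads. Counting flanks at 1 cell as well, 30 stretches had both flanks at 1 cell or fewer.

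Of the 4 stretches farthest from any other contact, 3 were in contact in 20.7 to 24.1% of the cells. At 144700001 to 144800000 of 9:22 the nearest other contacted bin was 19.2 Mb away. This bin was in contact in 7 cells and at 0 in 16, with a highest OE of 3.78 in cell 28. At chr13:23000001-23200000 the gap was 11.5 Mb, the contact frequency 20.7% and the OE 0, 0.209 and 2.73. At chr21:41700001-41800000 the gap was 9.2 Mb, with 6 cells in contact and 17 at 0. The fourth, chr4:53000001-53100000, lay 4.9 Mb from other contacts, was in contact in 11 cells and had OE of 0, 0.648 and 2.90. Flanks of these 4 were in contact in 2 to 4 cells. The mean OE of the stretches was 0.470, 0.581, 0.499 and 0.766, in the order named. That of their flanks was 0.390 and 0.327, 0.440 and 0.410, 0.309 and 0.292, and 0.424 and 0.432. Positions on 9:22 are those of the table, and which of them belong to chromosome 22 was not settled here.

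Stretches were found on 20 of the 21 autosomes with values, as named in the table, and chromosome 7 held the most. Chromosome 8 is not analysed here. Chromosome 7 had 46, or 2.95 per 10 Mb of valued bins, against 1.57 over all autosomes, and they made up 54.8% of its 84 runs and 12.0% of its contacted bins. Chromosomes 21 (2.53 per 10 Mb, 9 stretches) and 9:22 (2.22, 30 stretches) followed. On chromosome 21, none of the stretches from position 9800001 to 15200000 remained when the bins of lowest expectation were left out. Chromosome 4, with 61.2% of its bins contacted, had 35 stretches (1.86 per 10 Mb). The order depended on the limits. With a frequency limit of 10% or with 2 flanking bins chromosome 7 ranked 2, and with cells thinned to equal depth it ranked 3. At an OE limit of 0.5 chromosome 7 had 2.31 per 10 Mb and ranked 5, and with any read as contact it had 2.57 against 3.42 over all autosomes.

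**Figure D3:**
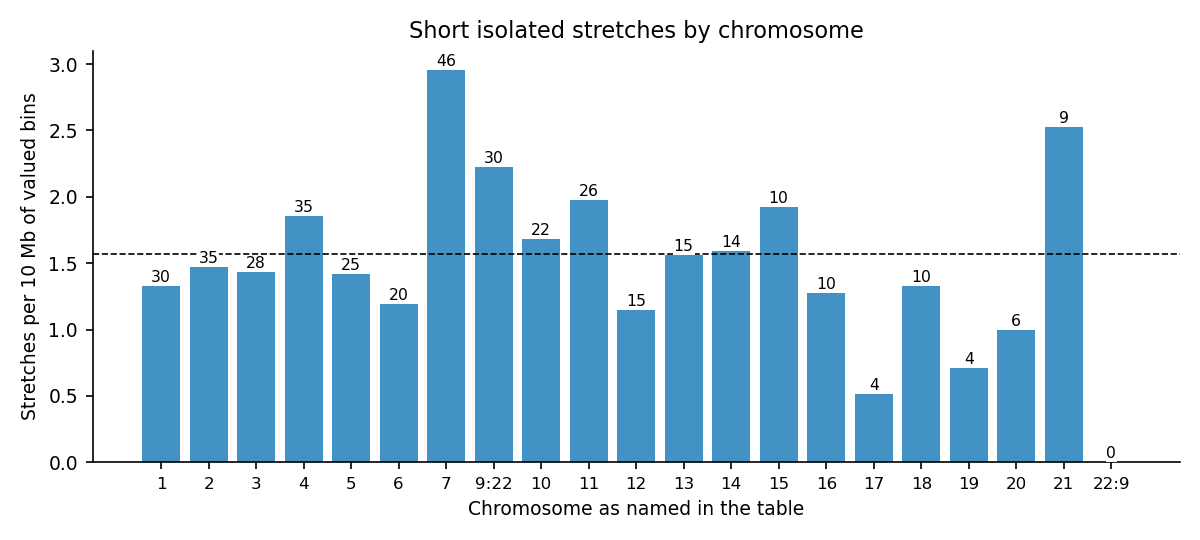
Short isolated stretches per 10 Mb of valued bins on each autosome with values, as named in the table (bars, number of stretches above). The value over all these autosomes (1.57) is a dashed line. Chromosome 7 has the highest bar with 46 stretches, and 22:9 has none.

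Chromosomes 17 and 19, which are rich in genes and had few contacts, each held 4 stretches, and 22:9 held none because none of its bins reached 20%. On chromosome 19 the stretches made up 8 of only 25 contacted bins. The highest was chr19:22900001-23200000, with a contact frequency of 39.1%, OE of 0, 0.757 and 4.88, and 226 reads. Others there were chr19:21700001-21800000 (31.0%) and chr19:20200001-20500000 (28.7%), and each of the 3 was 0.1 Mb from another contacted bin. The fourth, chr19:27800001-27900000 (31.0%), adjoined the part of the chromosome without values at a distance of 0.1 Mb and rested on 13 reads. On chromosome 17, chr17:22000001-22100000 (34.5%, 46 reads) and chr17:60300001-60400000 (20.7%, 13 reads) were also thinly covered. At chr17:53200001-53300000 the contact frequency was 24.1%, with OE of 0, 0.315 and 3.69 and 140 reads. At chr17:53700001-53800000 it was 20.7%, with 0, 0.425 and 1.51 and 121 reads. There the left flank had a mean OE of 0.529, above the 0.521 of the stretch. The right flank of chr19:20200001-20500000 was also higher, at 0.763 on 4 reads against 0.726. The other stretches of both chromosomes had a higher mean OE than either flank.

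Cells differed widely in how many stretches they contacted. A stretch was taken as in contact in a cell where the mean OE of its bins was 1 or more. On this measure a cell contacted 119 ± 36.3 of the 394 (SD, n = 29), from 48 in cell 18 to 188 in cell 28, or 12.2 to 47.7%. Of long-domain bins, 70.7% ± 9.50 (SD) were in contact per cell. Deeper cells contacted more of both. Over the 29 cells, the share of stretches in contact correlated with log10 reads at a Pearson's r of 0.701 and a Spearman's rho of 0.742. Leaving out the 2 cells of most extreme depth gave an r of 0.756. For long-domain bins r was 0.816 and rho 0.832, and r rose to 0.924 when those cells were left out. Read depth entered both measures, and its part in the difference between cells was not tested. Cell 18 had 91895 reads and was not the shallowest.

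The bins of a stretch did not always act as a unit. In the 118 stretches of 2 bins, 42.5% of 3422 pairs of stretch and cell had a contact. In 653 of these both bins were in contact (44.9%), and in 800 only 1. In the 66 stretches of 3 bins, all 3 were in contact in 338 pairs, or 30.3% of those with any contact. The bins were in contact together in a median of 5 cells for either length.

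What surrounds a stretch varied with it from cell to cell. The rule set in how many cells a bin was in contact, not in which. However, the same 29 cells chose the stretches and gave the values below, and cells outside the choice were not used. Within a cell, flanking bins had a mean OE of 0.693 beside stretches in contact and 0.215 beside stretches not in contact. Centred on each stretch's own mean over cells, the difference was 0.477 ± 0.123 (SD, n = 29) and was positive in 29 of 29 cells (two-sided sign-flip permutation test over cells, adjusted p = 1.11e-05, the smallest the resamples can give). In bins 2 to 5 away that were under the limit it was 0.234 ± 0.0689, and in bins 6 to 10 away 0.166 ± 0.0901, again in 29 of 29 cells with the same adjusted p in that permutation test. The OE of the stretch itself was 2.11 in contact and 0.283 otherwise, which differ by the definition of contact. Relative to the level of low bins on the same chromosome of the same cell, the difference in adjacent bins was 0.454. With other contact limits, which choose other stretches, it was 0.251 at an OE of 0.5, 0.906 at an OE of 2 and 0.0288 with any read as contact.

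**Figure D4:**
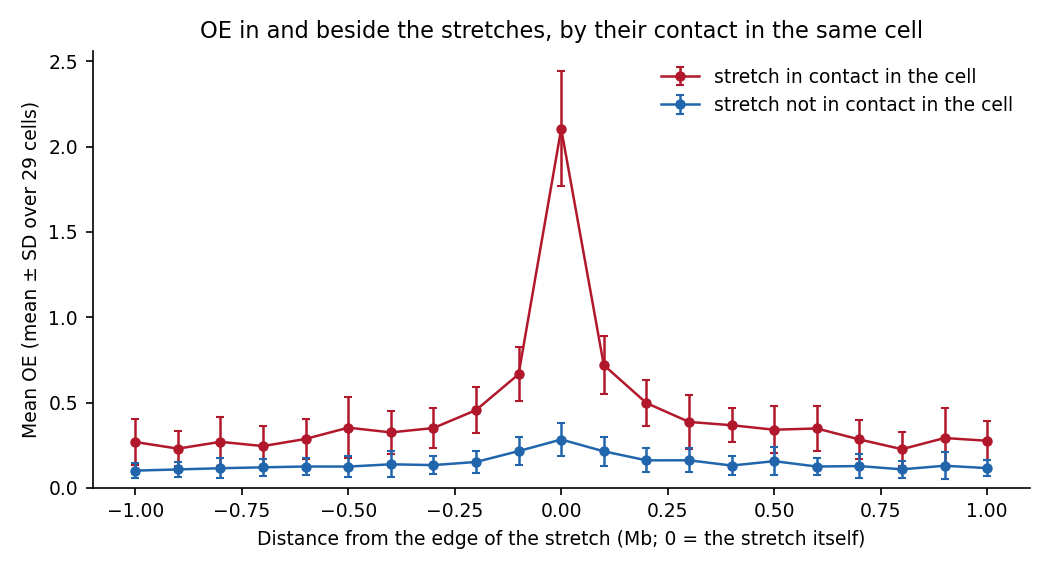
Mean OE (mean ± SD over 29 cells) of the stretches (at 0) and of bins under the limit at up to 1 Mb from their edges, in cells with the stretch in contact (red) and not in contact (blue). Red falls from 2.11 in the stretch to 0.666 and 0.719 in the bins beside it and stays above blue over the whole range. The separation at 0 follows from the definition of contact, and only bins under the limit were taken beside it.

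Stretches and contacted bins across a gap of 1 bin were often in contact in the same cells. The bin on the far side was in contact in 60.4% of cases when the stretch was, and in 22.6% when it was not, a centred difference of 34.9 percentage points ± 8.71 (SD, n = 29 cells). The gap bin itself was in contact in 26.4% against 4.55%, a difference of 22.1 points ± 7.38. Both differences were positive in 29 of 29 cells (sign-flip permutation test, adjusted p = 1.11e-05). These values take each gap from the side of each stretch beside it, which makes 237 sides of 182 gaps. Of the 182 gap bins, 164 had an expectation of 100 units or more, 17 had less, and 1 had no read in any cell.

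Long domains of the same chromosome were also contacted more in cells with the stretch in contact. In the nearest long domain, 74.5% of the bins were in contact when the stretch was and 58.6% when it was not, over 390 stretches. The centred difference was 15.2 percentage points ± 4.65 (SD, n = 29), positive in 29 of 29 cells (sign-flip permutation test, adjusted p = 1.11e-05). With 378 stretches that also had a domain at least 20 Mb away, the difference was 15.2 points for the nearest domain and 6.07 points ± 3.48 for the distant one. Nearest minus distant came to 9.18 points ± 5.26, positive in 29 of 29 cells (adjusted p = 1.11e-05 in the same permutation test). By distance, the difference was 18.9 ± 5.95 points for 130 stretches within 0.5 Mb of the domain, 15.0 ± 8.68 at 0.6 to 1 Mb (52 stretches), 15.0 ± 6.29 at 1.1 to 5 Mb (144) and 7.18 ± 7.64 beyond 5 Mb (64), positive in 29, 28, 29 and 26 cells. Each of these passed the permutation test (adjusted p = 1.11e-05), and the difference between the distance classes was not tested.

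**Figure D5:**
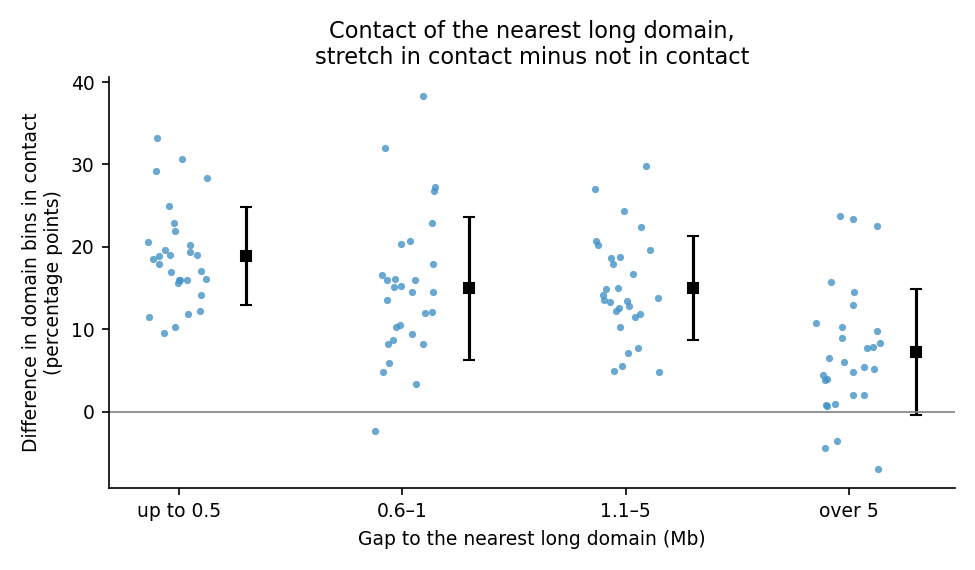
Difference in the share of bins in contact in the nearest long domain (percentage points) between cells' stretches in contact and not in contact, for 4 classes of distance. Points are the 29 cells, and the black square with bars is their mean ± SD. The mean is 18.9 points within 0.5 Mb and 7.18 points beyond 5 Mb.

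Edges of the stretches were compared with edges of long domains at like frequency, taking edge bins in contact in 6 to 9 cells. These bins were picked by their frequency in the same 29 cells. A single-bin stretch entered with the same edge bin on either side. The OE of the outer bin was higher by 0.546 ± 0.147 (SD, n = 29 cells) with the edge bin of a stretch in contact (576 sides) and by 0.377 ± 0.126 with that of a long domain (247 sides). Stretches exceeded long domains by 0.169 ± 0.174, in 24 of 29 cells (sign-flip permutation test, adjusted p = 1.11e-05). The outer bins also had a higher mean OE beside stretches (0.359) than beside long domains (0.290). With outer bins at 3 to 5 cells on both sides of the comparison, their means were 0.455 and 0.442 and the difference fell to 0.0818 ± 0.277 (18 of 29 cells, adjusted p = 0.124 in the permutation test). Within the runs, adjacent bins at 6 to 9 cells were coupled by 45.8 points in stretches (89 pairs) and 39.9 points in long domains (142 pairs). That difference of 5.88 ± 14.9 points (20 of 29 cells, adjusted p = 0.0453 in the permutation test) was lost or reversed under 10 of 14 alternatives, with adjusted p from 0.00702 to 0.691.

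The 3 cells that had no part in the choice gave a separate reading. In cell 13 the mean OE was 0.886 in the bins of the stretches and 0.359 in the flanks, in cell 15 it was 0.719 and 0.120, and in cell 17 it was 0.706 and 0.326. The stretches were higher in 3 of 3 cells, by 0.502 ± 0.111 (SD), but with 3 cells the exact sign-flip test cannot go below p = 0.25, which it gave. The reads behind this were few. Stretches held 23, 19 and 33 reads and flanks 11, 5 and 19, so that stretches took 67.6% (exact 95% interval 49.5 to 82.6%), 79.2% (57.8 to 92.9%) and 63.5% (49.0 to 76.4%) of them, where the expectations of the bins give 46.7%. The intervals cover counting error only, since amplified reads are not independent molecules. In the same 3 cells, long domains had a mean OE of 2.24 to 2.39.

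Few reads suffice for contact in a bin of low expectation, so the expectations were compared. Over all bins of the stretches the median expectation was 319 units, close to the 321 of their flanks and the 315 of long domains. These values leave out bins with no read in any cell, whose expectation could not be recovered. However, 8.07% of the bins of stretches and 7.22% of the 720 flank bins with reads had under 100 units, against 2.43% of 23911 autosomal bins with reads and 0.720% of long-domain bins. In 38 stretches at least 1 bin was that low, and 27 of these 38 lay within 1 Mb of a bin without values, whereas 14 of the other 356 did. In 32 stretches 1 read sufficed for contact in the median cell. Over all stretches the median was 6 reads needed and 13.5 reads found in cells in contact. Without those 38 stretches, the difference in flanks between stretches in contact and not in contact was 0.505 and that in the nearest domain 15.7 points.

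Which stretches met the rule depended strongly on its limits, while their number changed less. An OE limit of 0.5 gave 448 and an OE limit of 2 gave 411, but only 54 and 32 of the 394 (13.7% and 8.12%) were among them with the same start and end. Counting any overlap, 114 and 79 of the 394 met a stretch of the other limit. With cells thinned to 40279 reads there were 457, of which 166 had the same start and end (42.1% of the 394 and 36.3% of the 457), and 257 of the 394 were overlapped. With 2 flanking bins under the limit 178 remained, and with any read as contact there were 858, with 27 of the 394 unchanged. None of the 394 was kept under all 9 alternatives that choose stretches anew, and 7 were kept under 7. The 4 most often contacted of these 7, looked up afterwards, were chr11:20200001-20400000 (44.8%), chr1:108800001-108900000 (44.8%), chr1:236800001-236900000 (41.4%) and chr11:8400001-8600000 (39.7%), with contact frequencies in parentheses. Of these, chr1:108800001-108900000 rested on 79 reads at an expectation of 110 units and had no value without the bins of lowest expectation.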

How the data were processed

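Single-cell DamID of lamin B1 was analysed from 1 table that the authors deposited, with a ratio of observed to expected reads (OE) per 100-kb bin and cell, per its name. Per the submitters' processing notes, cutadapt, Bowtie2 2.1.0 and hg19 were used. How the expectation, filters and duplicates were handled is not stated by any label or header. Of 35 samples 32 had a column, matched by sample number. Whether cells came from separate cultures is not labelled, so p-values measure only the spread between these cells.

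Reads were recovered as whole multiples of a step (tolerance 0.01). Each step was a cell's factor over a whole number per bin, called units here. A bin whose reads share a factor comes out too low. Differences were tested by two-sided sign-flip permutation over cells (100000 resamples, numpy 2.4.6), with Benjamini-Hochberg adjustment over 20 tests, 15 of them added after the data were seen. Only the procedure for adjacent bins was tried on simulated contacts. These were drawn independently for each stretch, without any likeness between stretches of a chromosome, and the other tests were not covered. The members, lists and alternatives were chosen with earlier results of these data known. Named stretches are the 4 most often contacted of each length, the 4 most isolated and up to 4 each on chromosomes 17, 19 and 22:9. Others named are marked. No genes were named, for want of an annotation of hg19.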

Additional observations from a re-analysis of the deposited data

How the results depend on the processing

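Values were recomputed over 11 alternatives set with the tests and 4 chosen after seeing the data. Of 308 values other than the contact frequencies of named stretches, 290 were counted as unchanged. For tests this meant the same sign and verdict, and for counts a value within 1.5 times. For expected reads it meant a ratio within the SD over stretches, and for the 3 cells left out the sign alone. The coupling of a stretch with adjacent bins (0.0288 to 0.906 OE, adjusted p at most 0.00393), with bins 2 to 5 (0.0176 to 0.503) and 6 to 10 away (0.0228 to 0.309), with the nearest long domain (5.08 to 21.3 points) and nearest minus distant (3.38 to 14.9 points) passed under each alternative that was run for it. The number of stretches moved to 858 with any read as contact and to 178 with 2 flanking bins. Edges of stretches minus edges of long domains reversed with any read as contact (-0.0191). With outer bins at 3 to 5 cells this difference reversed with any read (-0.00824) and newly passed at an OE limit of 0.5 (0.0993), a frequency limit of 30% (0.157), after thinning (0.118) and without the 8 cells with fewest reads (0.175). The difference in coupling of adjacent bins within runs reversed at an OE limit of 2 (-1.26), with any read (-2.66) and at 30% (-1.51), and no longer passed at 10% (2.94), after thinning (3.59), without 8 cells (3.75), with 2 flanking bins (7.15), with long domains of 5 bins (3.31), with chromosome X (5.53) and with all 32 cells (6.55). Another limit chooses other stretches. Beyond that the cause was not tested. Of 303 contact frequencies of named stretches, 260 stayed within the exact 95% interval of the reported value. Alternatives that kept the OE values, the contact limit and the cells could not move them, so this total is not a measure of stability. Of the 24 named stretches, 20 stayed at an OE limit of 0.5, 7 at 2, 6 with any read and 20 after thinning. All 24 stayed without the 8 cells with fewest reads and with all 32 cells. Without the bins of lowest expectation, 15 of the 24 named stretches kept all their bins. In the 3 cells left out, p was 0.25 under each alternative, the smallest possible. No paired analysis was possible because all cells belong to 1 group.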

Other observations

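Chromosome X was outside the rule, which is limited to autosomes. Taken the same way, it held 32 short isolated stretches among 81 runs (39.5%, against 41.3% on the autosomes), or 2.15 per 10 Mb. Their median contact frequency was 29.0%. The highest, chrX:80100001-80400000, had 67.8% over 3 bins with flanks in contact in 1 and 3 cells, and it rested on 590 reads. On X 57.2% of the bins were contacted in 20% or more of the cells, against 40.8% on the autosomes. These values were not tested.

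In cells in contact, short stretches and long domains had similar levels when their bins were contacted equally often. In bins at 6 to 9 cells the mean OE of the contacting cells was 2.02 ± 0.32 (SD, n = 29) over 423 bins of stretches and 1.95 ± 0.30 over 576 bins of long domains, higher in the stretches in 19 of 29 cells. The limit of 1 entered both values, and they were not tested.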
